A study of Mus musculus with 96 samples.

Results

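The genes described are 8 members of the S100 family that are measurable in striatal glia, S100a1, S100a4, S100a6, S100a10, S100a11, S100a13, S100a16 and S100b, together with Lgals1, the gene of galectin-1. They were taken by gene symbol, and all 9 were found among the 24060 gene entries of the expression files. The list was drawn up with earlier results of these data known. It was partly chosen by the change of IP level after quinolinic acid, where Lgals1 and S100a11 stood near the top, so that comparison is a description here and carries no test. RNA came from the striatum of 48 adult mice whose astrocytes carried Rpl22-HA, a tagged ribosomal protein delivered by an adeno-associated virus (AAV, the RiboTag method) 3 weeks before extraction. From the lysate of each mouse 2 libraries were made, the input, which is RNA of the whole cleared lysate, and the IP, which is ribosome-bound RNA pulled down through the HA tag, giving 96 libraries in 24 groups of 4. Both kinds carry the cell type label striatal astrocytes, although the input holds RNA of all cells of the lysate.

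There were 6 experiments, each with 4 treated and 4 control mice, all of which carried the RiboTag virus. C57BL/6 mice received quinolinic acid (QA, an excitotoxin that kills striatal neurons through NMDA receptors, labelled 30 nM) or vehicle in the striatum, with RNA taken 2 weeks after QA. C57BL/6 mice received lipopolysaccharide (LPS, a bacterial trigger of systemic inflammation) at 5 mg/kg i.p. or vehicle i.p., with RNA taken 24 h after LPS. Kir4.1flox/flox mice, in which the potassium channel gene Kcnj10 can be deleted by Cre, received AAV5-GfaABC1D-Cre or the control virus AAV5-GfaABC1D-TdTomato in the striatum. The GfaABC1D promoter directs expression to astrocytes. Mice labelled Itpr2-/- (IP3R2 knockout, KO, lacking an IP3 receptor of calcium stores) were set against Itpr2+/+ wild-type (WT) littermates. C57BL/6 mice with the Gs-coupled designer receptor rM3Ds in astrocytes received its ligand clozapine-N-oxide (CNO) at 1 mg/kg i.p. or vehicle, with RNA taken 2 h after CNO. C57BL/6 mice with the Gq-coupled designer receptor hM3Dq in astrocytes received the same CNO dose or vehicle, and the labels used here give no time for them. The vehicle mice of the receptor experiments carried the receptor too, and no mice without a receptor received CNO.

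S100 proteins are small proteins with paired EF-hand motifs that mostly bind calcium and then dock onto partner proteins such as annexins, cytoskeletal motors and enzymes. Several are also released and act on receptors such as RAGE (Ager) and Tlr4. S100b is a long-used marker of astrocytes, and S100a6, S100a10 and S100a11 are among the genes that reactive astrocytes are known to raise. Galectin-1 is a lectin that binds beta-galactosides on cell-surface glycoproteins, inside and outside the cell, and is expressed by astrocytes and by many other cell types, blood vessel cells, fibroblasts and phagocytes among them.

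In the GRCm38.p6 assembly, which is the mm10 build named in the submitters' processing notes, 7 of the 9 genes lie on chromosome 3 in 2 blocks. S100a1 (chr3:90511034-90514330), S100a13 (chr3:90514233-90524581), S100a16 (chr3:90537254-90543151), S100a4 (chr3:90603770-90606045) and S100a6 (chr3:90612894-90614414) fill a block of 103381 bases. S100a11 (chr3:93520496-93526288) and S100a10 (chr3:93555117-93564645) lie within 44150 bases, 2906081 bases further along. S100b (chr10:76253836-76261319) and Lgals1 (chr15:78926725-78930465) lie apart from them. S100a1, on the minus strand, and S100a13, on the plus strand, overlap by 98 bases. The libraries were strand-specific per the labels, but whether counting used the strand is not given in the sources used here, so reads in the shared bases may have been assigned to either gene. Lgals1 overlaps the RefSeq gene Gm30368 by 1271 bases. The promoters shown, from RefSeq on GRCm38.p6, run from 250 bases before to 50 bases after the gene start, 5′ to 3′. They are those of S100a11, the S100 gene with the largest IP difference in 3 of the experiments below, and of S100b, the astrocyte marker, whose IP level had the narrowest range over the 12 IP groups. Capitals mark matches to TGANTCA, the AP-1 motif, read on both strands.
S100a11 promoter, chr3:93520246-93520545, plus strand: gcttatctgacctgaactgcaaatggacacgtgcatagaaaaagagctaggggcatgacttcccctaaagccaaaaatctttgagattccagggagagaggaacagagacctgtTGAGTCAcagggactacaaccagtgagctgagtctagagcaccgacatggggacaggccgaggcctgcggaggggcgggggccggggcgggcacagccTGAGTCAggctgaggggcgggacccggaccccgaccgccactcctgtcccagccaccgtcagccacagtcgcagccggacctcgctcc
S100b promoter, chr10:76253586-76253885, plus strand: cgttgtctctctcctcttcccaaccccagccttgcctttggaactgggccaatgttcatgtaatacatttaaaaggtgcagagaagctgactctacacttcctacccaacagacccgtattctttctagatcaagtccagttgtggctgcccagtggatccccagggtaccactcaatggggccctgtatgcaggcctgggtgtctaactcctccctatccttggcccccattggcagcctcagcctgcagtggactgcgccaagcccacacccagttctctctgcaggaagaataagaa
In the S100a11 promoter the motif occurred as TGAGTCA 136 and 38 bases before the start, and the S100b window held no match. A second S100a16 promoter held 1 match (TGAATCA, 192 bases before the start), and those of S100a1, S100a13, S100a4, S100a6 and the other S100a16 promoter held none. S100a10 and Lgals1 had no promoter entry, so neither gene was searched for any motif. Of all 32851 RefSeq promoters compared, 7.81% held at least 1 match. The CRE motif TGACGTCA (1.79% of promoters), the STAT motif TTCNNNGAA (8.30%) and the NF-kB motif (4.51%) had no match in any of these windows, and no AP-1 match overlapped another motif. A match describes letters in a window and not a bound site.

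The files hold FPKM, fragments per kilobase of exon scaled to sequencing depth, which allows levels of different genes to be compared. Whole reads could be recovered from the steps of the values, 42482794 to 82256202 per IP library and 14738821 to 51033643 per input library. The least abundant gene, S100a11, had 2 to 164 reads in the IP of control mice and 1 to 37 in their input, and its input values are the least precise. In control mice the IP was enriched over input for 12 of 12 astrocyte markers (median log2 difference 2.73) and depleted for 12 of 12 microglia markers (-4.81) and 10 of 10 endothelial markers (-2.73). Markers of interneurons (5 of 6 higher, median 2.14) and of ependymal cells (6 of 6 higher, median 1.72) were also enriched in the IP. Oligodendrocyte markers were not depleted in every control group. Their sum was 1918 to 2149 FPKM in QA vehicle IP and 1730 to 1884 in its input. It was lower in IP than in input of TdTomato mice (1374 to 1764, against 2041 to 2185) and WT mice (640 to 1410, against 1527 to 1708). In the other control groups IP and input sums overlapped. Kcnj10 in IP fell from 142 to 164 FPKM in TdTomato mice to 27.9 to 36.1 in Cre mice. Itpr2 in IP was 11.4 ± 1.77 FPKM in mice labelled WT and 11.9 ± 1.82 in mice labelled KO (SD, n = 4 each); whole-gene values cannot show a deletion that leaves the rest of the transcript. Sex as read from Xist and Y-linked genes was 4 females in QA vehicle against 1 female and 3 males in QA, so that QA and sex can hardly be told apart. It was matched or nearly so in the other experiments. Each deposited library carries a mouse number, shared by 1 IP and 1 input, and replicates of a group have different mouse numbers.

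In the IP of the 24 control mice, S100a1 was the most abundant of the 9 genes per length, followed by S100b and S100a16. S100a1, whose protein regulates calcium handling in heart and brain, ranged from 198 to 544 FPKM (median 384). S100b ranged from 173 to 295 FPKM (median 201) and S100a16 from 82.2 to 174 FPKM (median 140). These ranges of S100a1 and S100b overlapped, as did those of S100b and S100a16. A middle group comprised S100a6 (calcyclin, 36.6 to 104 FPKM, median 67.5), S100a13 (which takes part in release of the growth factor FGF1, 47.2 to 77.2, median 64.9) and S100a10 (p11, the partner of annexin A2, 25.3 to 117, median 49.6). Lgals1 (9.70 to 47.8 FPKM, median 15.8) and S100a4 (which binds non-muscle myosin, 6.40 to 16.1, median 12.8) were lower. S100a11, a partner of annexin A1, was near the limit of detection in most controls (0.0613 to 5.36 FPKM, median 1.11). In the input, medians ran in nearly the same order, from 117 FPKM for S100a1 and 77.1 for S100b to 4.73 for S100a4 and 0.407 for S100a11. S100a10, at a median of 29.7 FPKM in input, stood above S100a13 (20.6) and S100a6 (15.9) there. Levels between experiments were not tested, because the experiment and any sequencing batch that went with it cannot be told apart.

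**Figure D1:**
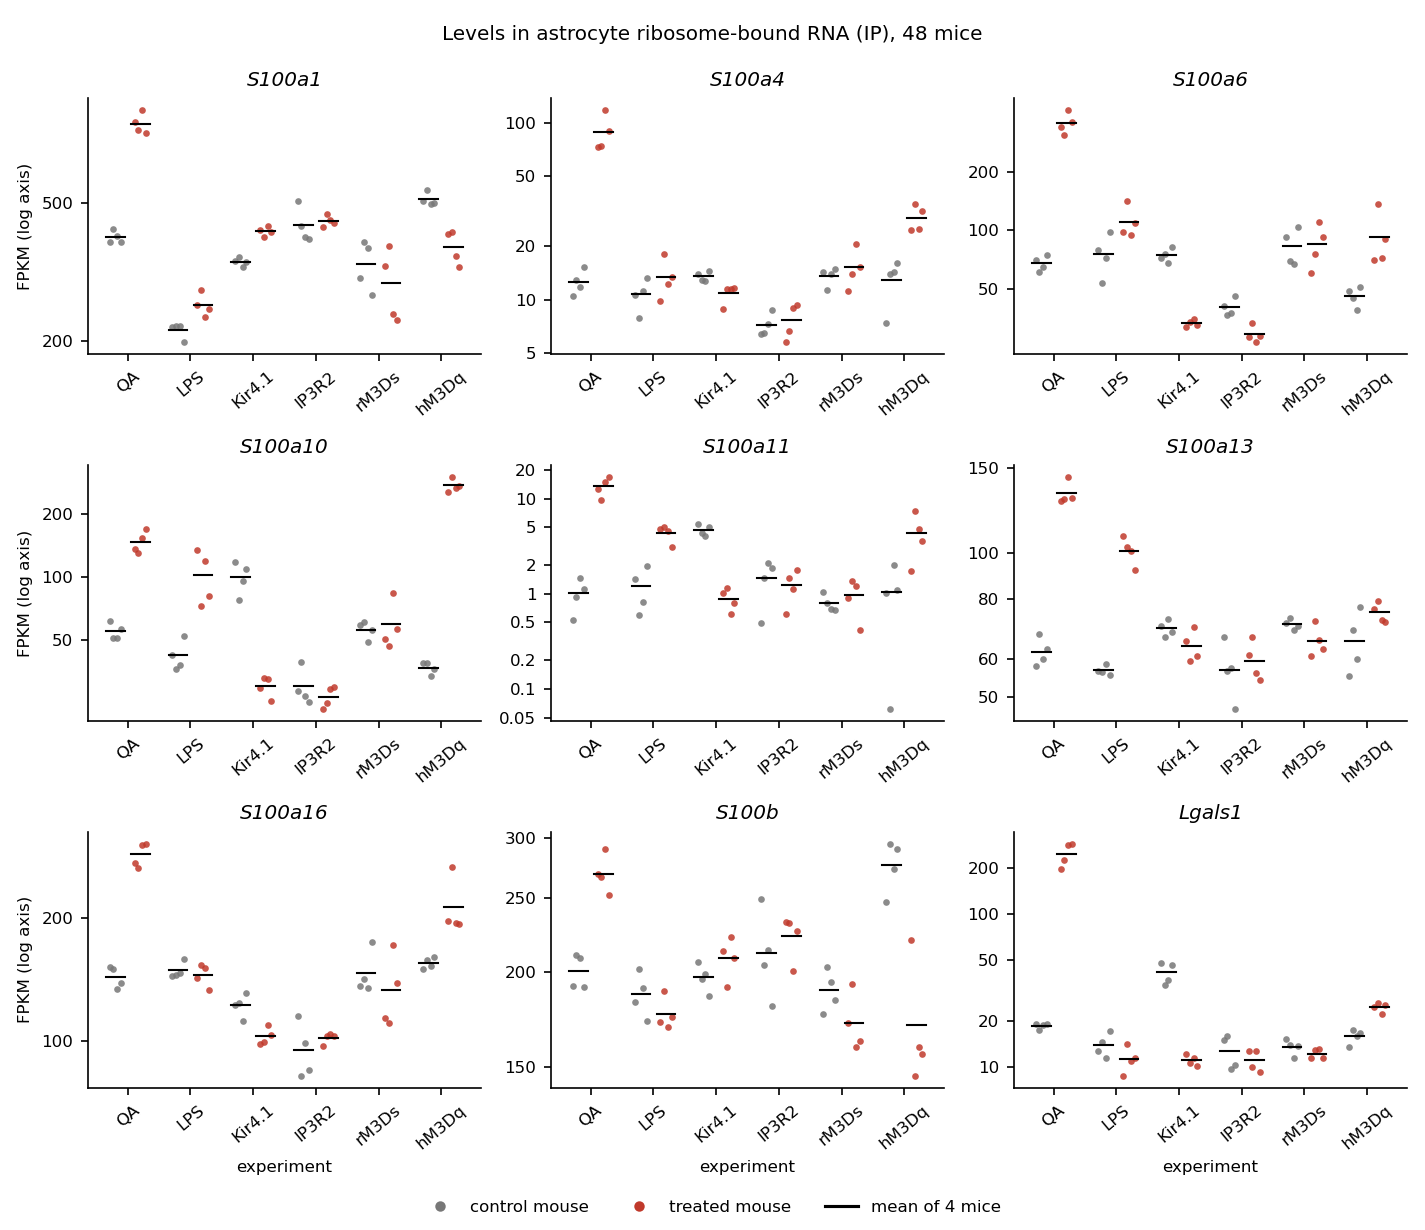
Level of each gene in the IP, in FPKM on a log axis, for every mouse of the 6 experiments (grey, control; red, treated; black line, mean of 4 mice). QA mice form the highest group for 7 of the 9 genes, S100a10 is highest in hM3Dq mice given CNO at 254 to 300 FPKM, and Lgals1, S100a10 and S100a11 are raised in TdTomato mice beside all other controls.

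All 9 genes were higher in IP than in input of the same control mice (limma with a term for each mouse, adjusted p by Benjamini-Hochberg over 15566 genes). Of all genes tested, 42.9% were called higher and 88.7% in either direction, so a call alone is common here. The enrichment was largest for S100a6, at a log2 difference of 2.13 ± 0.05 (SE; adjusted p = 3.08e-25), and for S100a1, at 1.93 ± 0.05 (7.23e-23). S100a13 (1.79), S100b (1.69) and S100a16 (1.59) followed, with IP and input libraries that did not overlap. S100a11 (1.5), S100a4 (1.41), Lgals1 (1.37) and S100a10 (1.02) were less enriched, and their IP and input levels overlapped between mice. On deposited FPKM every one of the 24 mice had a higher IP than input for 8 of the genes, and 22 of 24 mice did for S100a11. Astrocyte markers had a median of 2.73 on the same scale, above each of the 9 genes.

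The enrichment varied between experiments most for Lgals1, from 0.93 in rM3Ds controls to 2.43 in TdTomato mice, and for S100a11, from 0.78 in hM3Dq controls to 2.17 in LPS controls. For S100a10 it went from 0.65 in rM3Ds controls to 1.71 in TdTomato mice. It varied less for S100a16 (1.41 to 1.89), S100a6 (1.88 to 2.34) and S100b (1.51 to 2.09). Each gene passed the test in the controls of each experiment alone, except S100a11 in hM3Dq controls (0.78, adjusted p = 0.32). Of the 24 mice, an hM3Dq control with 2 S100a11 reads in its IP was the lowest.

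**Figure D2:**
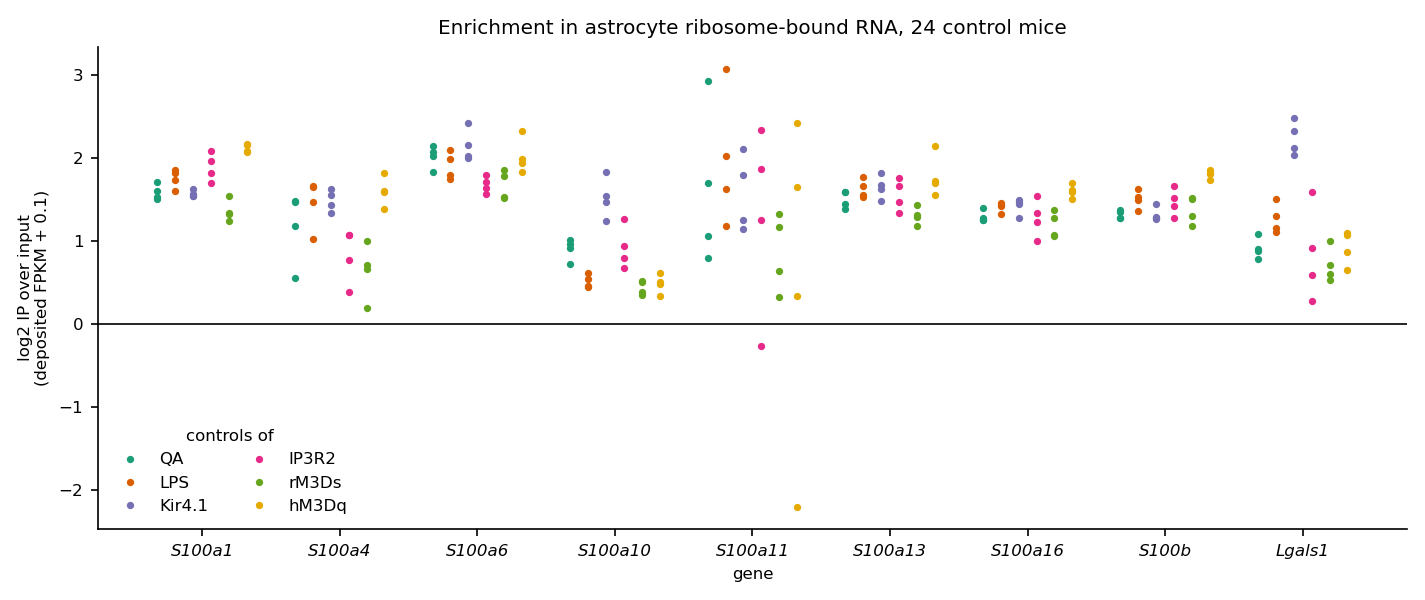
Log2 ratio of IP to input, on deposited FPKM with 0.1 added, for each of 24 control mice, coloured by experiment. Points lie above 0 except for S100a11 in 2 mice, and TdTomato mice stand above all other controls for Lgals1, while for S100a10 1 WT mouse (1.27) lies above the lowest TdTomato mouse (1.24).

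At 2 weeks after QA all 9 genes were at higher levels in astrocyte IP RNA, and the sizes fell into 2 sets. Lgals1, S100a11, S100a4 and S100a6 were up by 5.13-fold to 12.8-fold, while S100a10, S100a13, S100a1 and S100a16 were up by 1.94-fold to 2.59-fold and S100b by 1.31-fold. All 9 were called, beside 35.5% of all genes called higher and 74.0% called in either direction, and nothing is read from that count since this contrast bore on the choice of the genes. Lgals1 was at 17.4, 18.7, 18.9 and 19.1 FPKM in the vehicle mice and at 198, 225, 282 and 288 in the QA mice. The QA mice lay above every other mouse of the series for this gene. The log2 change was 3.68 (95% interval 3.41 to 3.95), at rank 9 from the top of 13824 genes. S100a11 went from 0.530, 0.925, 1.13 and 1.46 FPKM to 9.71, 12.6, 14.9 and 17.0, a log2 change of 3.63 (3.02 to 4.24). S100a4 went from 10.4, 11.8, 12.9 and 15.3 FPKM to 73.4, 74.0, 89.9 and 119, a log2 change of 2.76 (2.37 to 3.14). Neither gene's groups overlapped.

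S100a6 was at 60.7 to 74.5 FPKM in vehicle and 311 to 417 in QA mice (log2 change 2.36). S100a1, already the most abundant, was at 384 to 418 FPKM in vehicle and 793 to 922 in QA mice (1.04). S100b differed least, at 191, 192, 209 and 211 FPKM in vehicle and 253, 266, 269 and 290 in QA mice (0.39, interval 0.24 to 0.53), still without overlap. With female mice alone, an alternative added after seeing the data that leaves 1 QA mouse assumed to vary like the controls, the log2 changes were 3.36 for Lgals1, 3.54 for S100a11, 2.5 for S100a4, 2.28 for S100a6 and 0.37 for S100b.

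The input of the same mice, separate libraries of the same lysates, showed the 9 genes higher as well. Again 9 of 9 were called, beside 34.8% of all genes called higher and 73.2% in either direction, and for the same reason no p is given. Lgals1 was at 8.94, 9.18, 10.2 and 10.8 FPKM in vehicle and 92.8, 109, 129 and 129 in QA input (log2 change 3.41 ± 0.11, SE). S100a4 was at 4.53 to 7.07 FPKM in vehicle and 44.9 to 53.8 in QA input (3.02 ± 0.12). S100b was at 75.3 to 86.0 FPKM in vehicle and 138 to 146 in QA input (0.71 ± 0.05). S100a11 passed the minimum level in 1 of 4 vehicle and 4 of 4 QA inputs, so it entered through the group where it is high. The log2 change in IP minus that in input was 0.49 for S100a10, 0.34 for Lgals1 and -0.27 for S100b, and lay between -0.20 and 0.33 for the other 6 genes. The same IP values bore on the choice of genes, so these differences are a description as well, and nothing is read from the 46.9% of all genes called in this difference. Cell markers moved with these values. In input, 12 of 12 microglia markers rose, their summed level going from 840 to 979 FPKM in vehicle to 4601 to 6627 in QA, and 10 of 12 astrocyte and 5 of 7 tested fibroblast markers rose. So did 4 of 4 tested leukocyte, 8 of 10 endothelial, 4 of 7 tested mural, 9 of 10 oligodendrocyte and 4 of 4 oligodendrocyte precursor markers. Markers of medium spiny neurons, the principal neurons of the striatum, fell, 10 of 11 tested in input (sum 4545 to 4641 FPKM in vehicle, 1861 to 2043 in QA) and 11 of 11 in IP (2390.4 to 2493, then 378 to 568). Of interneuron markers 6 of 6 fell in IP (sum 1113 to 1263 FPKM, then 389 to 495) and 5 of 6 in input, and 6 of 6 ependymal markers rose in each fraction. Of 12 astrocyte markers in IP 7 rose and 3 fell. The QA change was lower in IP than in input for 12 of 12 astrocyte markers (median log2 difference -0.446). It was higher in IP for 10 of 10 oligodendrocyte markers (median 0.606). In IP the microglia sum went from 33.3 to 38.6 FPKM to 79.4 to 127 with 12 of 12 markers rising, and the oligodendrocyte sum from 1918 to 2149 to 3760 to 5168 with 10 of 10 rising. No marker of the microglia, oligodendrocyte, neuron, astrocyte or ependymal lists was at 0. The part of these markers in the levels of the 9 genes was not tested, and in bulk RNA fewer or more cells of a type cannot be told apart from less or more RNA per cell.

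At 24 h after LPS, 5 of the 9 genes rose in the IP, S100a11, S100a10, S100a13, S100a6 and S100a1, beside 36.9% of all genes called and 19.1% called higher. S100a11 went from 0.603, 0.820, 1.42 and 1.94 FPKM in vehicle to 3.08, 4.56, 4.74 and 5.04 in LPS mice. The groups did not overlap, and the rise was 4.05-fold (log2 change 2.02 ± 0.32, SE; limma adjusted p = 0.0042). S100a10 went from 36.1, 37.7, 42.1 and 51.9 FPKM to 72.3, 80.4, 119 and 135, a 2.61-fold rise (1.38 ± 0.24; 0.0055). S100a13 was the steadiest, from 55.5, 56.4, 56.8 and 58.7 FPKM to 91.9, 101, 103 and 108, a 1.96-fold rise (0.97 ± 0.07; 2.21e-04). S100a6 rose by 1.63-fold (0.71 ± 0.17; 0.0164) with groups that overlapped, at 53.1 to 98.2 FPKM in vehicle and 94.4 to 141 in LPS mice. S100a1 rose by 1.31-fold (0.38 ± 0.06; 0.0033), from 198 to 221 FPKM to 234 to 281.

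The other 4 genes did not pass the test. Lgals1, which differed most after QA, was at 11.5, 12.8, 14.5 and 17.1 FPKM in vehicle and 8.68, 10.8, 11.3 and 14 in LPS mice (log2 change -0.18, 95% interval -0.50 to 0.14; adjusted p = 0.338). S100b (0.06, -0.08 to 0.19), S100a16 (0.11, -0.04 to 0.25) and S100a4 (0.45, 0.05 to 0.86; adjusted p = 0.0724) were not called, and the interval of S100a4 leaves room for a rise as large as that of S100a6. Without LPS replicate 2 each of the 5 was called, with log2 changes of 1.99 for S100a11, 1.58 for S100a10, 1.01 for S100a13, 0.63 for S100a6 and 0.39 for S100a1.

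In input 3 of the 9 rose, S100a10, S100a13 and S100a11, beside 31.3% of all genes called and 15.4% called higher. S100a10 went from 26.3, 27.2, 28.9 and 33.7 FPKM to 41.3, 43.5, 47.2 and 52.6 (log2 change 0.72 ± 0.09; adjusted p = 0.0018), and S100a13 rose by 1.70-fold (0.76 ± 0.07; 4.07e-04). S100a11 was below the minimum of 0.5 FPKM in all 4 vehicle inputs and above it in all 4 LPS inputs, so its call (adjusted p = 0.0120) rests on entering through the treated group. When any LPS mouse was left out, S100a11 no longer met the minimum and was not tested. No member's LPS change differed between IP and input, beside 8.44% of genes that did. The nearest was S100a10, larger in IP by 0.65 ± 0.18 (adjusted p = 0.0544). Without LPS replicate 2, that difference passed for S100a10 (0.82, adjusted p = 0.0021), S100a16 (0.24, 0.0065) and S100a13 (0.25, 0.0133). Leaving out any other mouse gave no call for a member, so these calls depend on which mouse was dropped. Alongside, 6 of 12 astrocyte markers rose in IP and 5 of 10 oligodendrocyte markers rose there (summed level 1025 to 1725 FPKM in vehicle, 1399 to 2321 in LPS mice), while 5 of 11 medium spiny neuron markers and 3 of 4 oligodendrocyte precursor markers fell there. Of 12 microglia markers in input 7 fell and C1qa and C1qb, complement genes, rose. The same pair rose in IP, where 8 microglia markers were tested and none fell. Microglia markers in LPS IP summed to 25.0 to 30.5 FPKM, against 29.3 to 33.1 in vehicle, with none at 0. Of 5 mural markers tested in IP 3 fell and 1 rose (sum 28.2 to 32.2 FPKM in vehicle, 16.5 to 24.6 in LPS mice).

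Cre in Kir4.1flox/flox mice went with lower levels of most of these genes in the IP. Beside 29.3% of all genes called, 7 of the 9 were called, 6 of them lower and S100a1 higher, where 16.1% of all genes were called lower and 13.2% higher. S100a11 went from 4.09, 4.34, 5.08 and 5.36 FPKM in TdTomato mice to 0.608, 0.807, 1.01 and 1.15 in Cre mice. The groups did not overlap, and the fall was 4.83-fold (log2 change -2.27 ± 0.17; adjusted p = 1.18e-05). Lgals1 fell 3.61-fold, from 34.1, 37.2, 46.3 and 47.8 FPKM to 10.1, 10.5, 11.5 and 12 (-1.85 ± 0.10; 2.84e-06). S100a10 fell 3.21-fold, from 77.7, 94.9, 108 and 117 FPKM to 25.4, 29.4, 32.3 and 32.7 (-1.68 ± 0.12; 9.40e-06). S100a6 fell 2.18-fold, from 68.1, 71.6, 75.4 and 82.0 FPKM to 31.6, 32.6, 33.7 and 34.8 (-1.12 ± 0.06; 1.89e-06).

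The remaining changes were small. S100a1 rose by 1.26-fold, from 326, 338, 339 and 348 FPKM to 399, 412, 417 and 428 (0.33 ± 0.04; adjusted p = 1.30e-04). S100a16 fell by 0.22 on the log2 scale (adjusted p = 0.0133) and S100a4 by 0.29 (0.0343). S100a4 lost its call without TdTomato replicate 1, 2 or 4 (adjusted p = 0.0505 to 0.0954). It also lost the call with no filter (0.0588) and with voom on recovered reads, a count-based limma fit (0.0556). Both S100a16 and S100a4 lost theirs when the spread was taken over all 48 IP libraries (0.188 for S100a16, 0.382 for S100a4). S100a13 (-0.09) and S100b (0.12) were not called, although S100b was called without Cre replicate 2 (0.16, adjusted p = 0.0184).

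In IP the 4 TdTomato mice were above all 20 control mice of the other experiments for Lgals1 (9.70 to 19.1 FPKM in those 20), S100a10 (25.3 to 61.6) and S100a11 (0.0613 to 2.11). The 4 Cre mice lay within the range of those 20 controls for all 3 genes. For S100a6 the TdTomato mice lay within the other controls (36.6 to 104 FPKM) and the Cre mice, at 31.6 to 34.8, lay below all 20. Experiment, mouse line and viral vector differ between these control groups and cannot be told apart, so the values are given side by side without a test. In input Lgals1 was at 6.69 to 10.6 FPKM in TdTomato mice, within the other controls (4.86 to 10.8), and at 3.69 to 5.24 in Cre mice.

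In input Lgals1 alone of the 9 passed the test in the Kir4.1 experiment, beside 0.346% of all genes (49 of 14160). It went from 6.69, 8.50, 8.98 and 10.6 FPKM to 3.69, 4.63, 4.82 and 5.24 (log2 change -0.87 ± 0.14; adjusted p = 0.0382). The call was lost when any 1 mouse other than TdTomato replicate 2 was left out (adjusted p = 0.0526 to 0.155), with the log2 change staying between -0.93 and -0.76. S100a10 (-0.33; adjusted p = 0.0586) and S100a6 (-0.42; 0.0974) did not pass, with groups that did not overlap. The Cre difference was larger in IP than in input for S100a10 (log2 difference -1.34 ± 0.12; adjusted p = 3.75e-04), Lgals1 (-0.97 ± 0.12; 0.0031) and S100a6 (-0.69 ± 0.10; 0.0055), beside 2.35% of genes so called. Among markers in the IP, 10 of 10 oligodendrocyte genes fell (summed level 1374 to 1764 FPKM in TdTomato, 984 to 1222 in Cre mice), 4 of 9 tested microglia genes fell (sum 31.0 to 35.8, then 25.3 to 29.0) and 4 of 12 astrocyte markers rose while 2 fell. Medium spiny neuron markers rose, 10 of 11 tested (sum 1629 to 1735 FPKM, then 1980.2 to 2041). Of mural markers 4 of 6 tested fell and 1 rose (sum 27.7 to 34.3 FPKM, then 24.5 to 28.7), and 3 of 7 tested endothelial and 3 of 6 interneuron markers fell. No marker of these 7 lists was at 0, and their part in the changes of the 9 genes was not tested. In input of the same mice none of the 10 oligodendrocyte, 12 microglia, 12 astrocyte, 7 tested mural or 10 endothelial markers was called. Of 2 leukocyte markers tested in input 1 fell.

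No member passed the test between mice labelled KO and WT for Itpr2 or, in mice with rM3Ds, between CNO and vehicle. In the IP3R2 experiment 0% of genes were called in IP and 0.00709% in input, that is 0 of 13359 and 1 of 14099, with 774 and 1274 genes at an unadjusted p under 0.05. With voom on recovered reads 0 genes were called in either fraction. S100a6 came nearest in the IP, at 36.6, 37.6, 40.4 and 45.7 FPKM in WT and 26.4, 28.0, 28.6 and 33.2 in KO mice. These groups did not overlap, with a log2 change of -0.46 (95% interval -0.65 to -0.26; adjusted p = 0.375). The intervals for S100a1 (-0.13 to 0.23), S100b (-0.13 to 0.30) and S100a16 (-0.10 to 0.34) lay on both sides of 0. In the rM3Ds experiment 4.58% of genes were called in IP and 0.591% in input, and 2.19% had a CNO effect that differed between IP and input. Lgals1 was at 11.4 to 15.1 FPKM with vehicle and 11.4 to 13.1 with CNO (-0.13, -0.32 to 0.07), and S100a10 at 48.4 to 60.9 and 46.5 to 83.4 (0.06, -0.30 to 0.43). S100a11 in rM3Ds input did not reach the minimum level and was not tested. Rises of the sizes seen for S100a10 or S100a4 below lie outside the rM3Ds intervals of those genes.

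In mice with hM3Dq, CNO went with higher levels of 6 genes and lower levels of 2 in the IP, so that 8 of 9 were called beside 45.4% of all genes (24.3% higher, 21.1% lower). S100a10 changed most. It was at 33.6, 36.1, 38.5 and 38.7 FPKM with vehicle and at 254, 266, 270 and 300 with CNO. Every CNO mouse lay above every other mouse of the series for this gene, and the rise was 7.62-fold (log2 change 2.93 ± 0.07; adjusted p = 4.72e-09). S100a4 rose 2.37-fold, from 7.39, 14, 14.3 and 16.1 FPKM to 24.7, 25.1, 31.7 and 34.7 (1.24 ± 0.22; 0.0013). S100a6 rose 2.01-fold, from 38.7, 44.7, 48.3 and 51.0 FPKM to 70.3, 72.1, 89.7 and 137 (1.01 ± 0.19; 0.0020). Lgals1 rose 1.59-fold, from 13.6, 15.8, 16.7 and 17.4 FPKM to 22.0, 24.6, 25.4 and 26.1 (0.67 ± 0.09; 2.39e-04).

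S100a16 rose 1.40-fold (0.48 ± 0.11; adjusted p = 0.0055), with 3 CNO mice at 194 to 197 FPKM and replicate 2 at 266, above 150 to 160 with vehicle. S100a11 rose 4.95-fold (2.31 ± 0.72; 0.0238), at 0.0613 to 2.02 FPKM with vehicle and 1.73 to 7.47 with CNO. These groups overlapped, and the call was lost without CNO replicate 2 or 3 (adjusted p = 0.0582 and 0.0554). The lowest vehicle library held 2 reads of S100a11, and over the alternatives its log2 change ran from 1.40 to 2.79. S100b and S100a1 moved the other way. S100b fell 1.59-fold, from 247, 273, 290 and 295 FPKM to 146, 156, 160 and 221 (-0.67 ± 0.13; 0.0021), with no overlap. S100a1 fell 1.34-fold, from 495 to 544 FPKM with vehicle to 325 to 411 with CNO (-0.42 ± 0.10; 0.0066). S100a13 did not pass (0.25, interval 0.02 to 0.48; adjusted p = 0.0780).

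In hM3Dq input 4 of 9 were called beside 3.72% of all genes, S100a10, S100a4 and S100a6 higher (2.68% of genes were called higher) and S100b lower. S100a10 went from 21.8, 25.2, 27.3 and 30.4 FPKM to 58.4, 61.7, 62.5 and 68.7 (log2 change 1.26 ± 0.09; adjusted p = 6.20e-05). S100a6 rose by 1.79-fold (0.84 ± 0.15; 0.0105) and S100a4 by 2.13-fold (1.09 ± 0.22; 0.0218), the last called no longer without CNO replicate 3 or 4 (0.0613 and 0.0663). S100b fell from 73.9, 77.8, 79.9 and 83.0 FPKM to 54.7, 60.8, 63.5 and 65.8 (-0.37 ± 0.06; 0.0075). The change differed between IP and input for S100a10, larger in IP by 1.64 ± 0.07 (adjusted p = 3.52e-07), and for S100a1, lower in IP by a log2 difference of -0.37 ± 0.09 (0.0136), beside 21.3% of genes so called. The S100a1 difference lost its call without CNO replicate 3 (-0.29, adjusted p = 0.0729). With these changes in the IP, 7 of 12 astrocyte markers fell (summed level 10301 to 11234 FPKM with vehicle, 6696 to 8971 with CNO) and 6 of 6 ependymal markers fell (96.4 to 138, then 35.3 to 56.1), as did 3 of 4 oligodendrocyte precursor markers. Microglia markers in the IP summed to 27.1 to 30.0 FPKM with vehicle and 20.2 to 28.0 with CNO. The interneuron sum was 1623 to 1654 FPKM with vehicle and 1383 to 1458 with CNO, and the mural sum 27.7 to 30.8 and 29.2 to 58.0. No marker of these lists was at 0, and their part in the results was not tested.

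**Figure D3:**
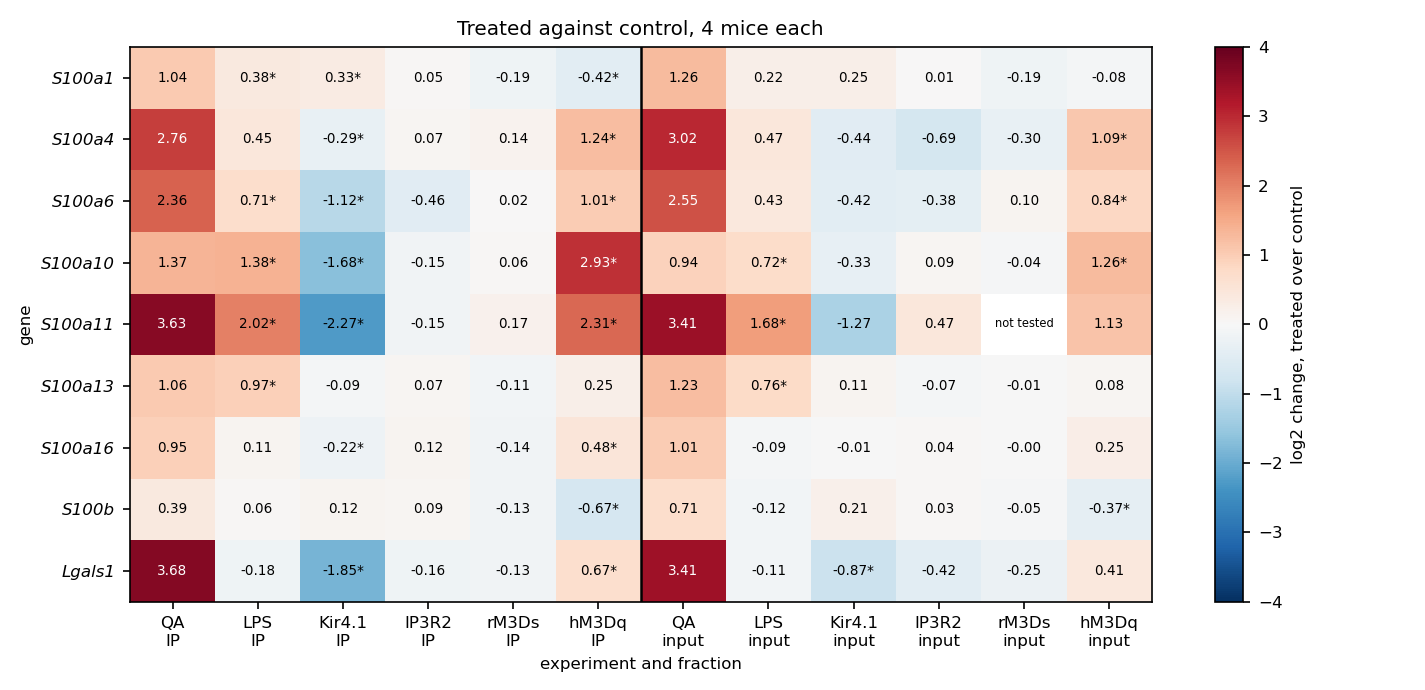
Log2 change of treated over control for each gene in the IP (left) and the input (right) of the 6 experiments, 4 mice against 4, from red (higher) to blue (lower). A star marks an adjusted p under 0.05 from limma over all genes; the QA columns carry no stars because that experiment bore on the choice of genes, and S100a11 was not tested in rM3Ds input.

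The response to CNO was compared between mice with hM3Dq and mice with rM3Ds in a model of both experiments, a comparison added after seeing the data. In IP the difference was called for 7 of 9 genes, beside 27.7% of all genes. It was 2.88 ± 0.18 on the log2 scale for S100a10 (adjusted p = 2.26e-08), 1.11 ± 0.30 for S100a4 (0.0120), 0.99 ± 0.30 for S100a6 (0.0195), 0.81 ± 0.13 for Lgals1 (2.03e-04), 0.63 ± 0.18 for S100a16 (0.0183) and 0.36 ± 0.12 for S100a13 (0.0390). For S100b it was -0.53 ± 0.16 (0.0226), and it was called neither for S100a1 (-0.23, interval -0.69 to 0.23; adjusted p = 0.488) nor for S100a11 (2.15, 0.32 to 3.99; 0.0767). The S100a13 call was lost in 12 of 23 alternatives. In input S100a10 (1.28 ± 0.12; 6.16e-05) and S100a4 (1.38 ± 0.28; 0.0212) were called, beside 1.26% of genes. The vectors, sexes and possibly times of the 2 experiments differ.

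Over the 12 IP groups, S100a4, S100a6, S100a10, S100a11, S100a13, S100a16 and Lgals1 had group means that correlated with each other at Pearson r of 0.588 to 0.913 (mean log2 values, 12 groups, which share experiments and libraries). S100b correlated with S100a1 at 0.808 and with those 7 at -0.235 to 0.404, and S100a1 with those 7 at 0.098 to 0.641. The range between the highest and lowest group mean was 22.5-fold for Lgals1, 16.9-fold for S100a11, 12.3-fold for both S100a4 and S100a6 and 10.2-fold for S100a10, against 3.92-fold for S100a1, 3.00-fold for S100a16, 2.34-fold for S100a13 and 1.62-fold for S100b. QA was the highest IP group for 7 genes, hM3Dq with CNO for S100a10 and hM3Dq vehicle for S100b. The QA group bore on the choice of the genes, so correlations, ranges and orders over the 12 groups are a description. In the order for Lgals1, QA (248 ± 44.2 FPKM), TdTomato (41.4 ± 6.74) and hM3Dq CNO (24.5 ± 1.80) each stood clear of the next group, and below them, from QA vehicle (18.5) to Cre (11), every group overlapped its neighbour. For S100a10 the gap was after hM3Dq CNO (273 ± 19.3 FPKM), while QA (147 ± 18.0), LPS (101 ± 30.0) and TdTomato (99.5 ± 17.2) overlapped in sequence with those below. For S100a11 QA (13.6 ± 3.12 FPKM) stood clear, then TdTomato (4.72 ± 0.60), hM3Dq CNO (4.39 ± 2.41) and LPS (4.36 ± 0.87) overlapped, and the other 8 groups lay at 0.801 to 1.48 FPKM. For S100b the 12 means lay between 171 and 276 FPKM, and the order of the lowest groups changed with scaling, hM3Dq CNO being lowest on deposited FPKM and rM3Ds CNO after TMM scaling.

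**Figure D4:**
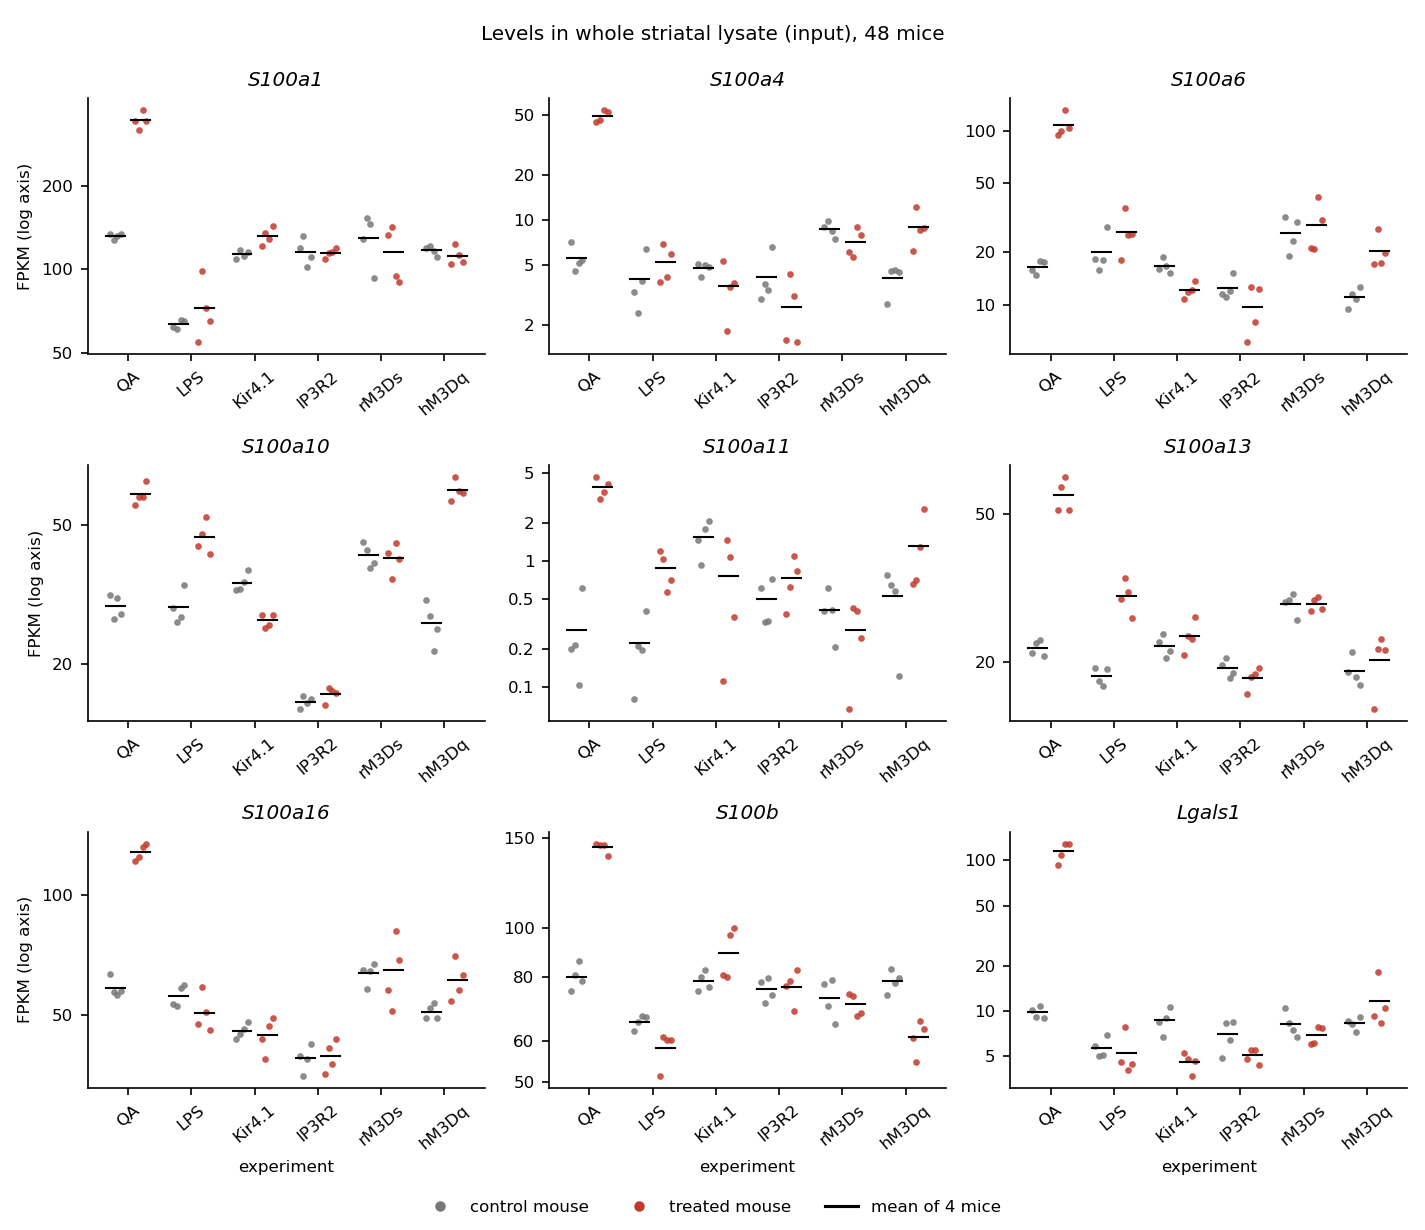
Level of each gene in the whole-lysate input, in FPKM on a log axis, for every mouse (grey, control; red, treated; black line, mean of 4 mice). QA mice stand above all other groups for 8 of the 9 genes, and hM3Dq mice given CNO reach the QA level for S100a10.

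By likeness over the 12 IP group means among 11504 genes, S100a10 was closest to Il1r1 (r = 0.966), Tuba1c (0.962) and Anxa2 (0.961), the last being the gene of its annexin partner. S100b was closest to Gja1, the astrocyte connexin 43 (0.963), Cep89 and Pxmp4. S100a4 was closest to Thbs2 (0.983) and Otud7b. S100a6 was closest to Prr5l (0.979). S100a11 was closest to Pdpn, the gene of podoplanin (0.947), Gpr126 and Pxdc1, and Lgals1 to Cryab, a small heat shock protein (0.960), Ephb2 and Ptplad2. S100a13 was closest to Ctsl (0.973), Ptprk and Pdpn, S100a16 to Frmd8 (0.971), Elovl1 and Rhoc, and S100a1 to Tmem209 (0.955), Cdh2 and Pnrc2. These values describe group means, the QA group that bore on the choice of the genes among them, and carry no p.

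**Figure D5:**
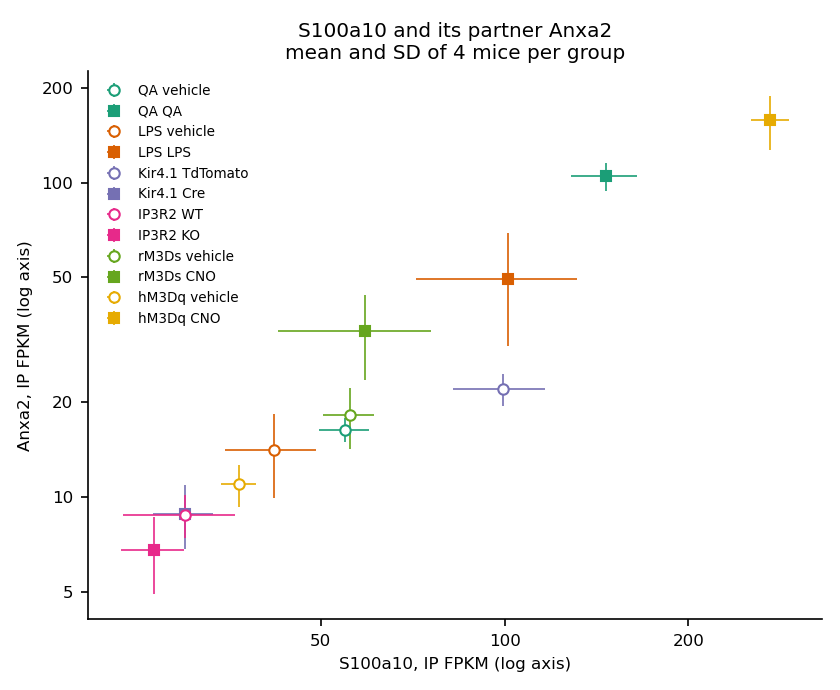
Group means of S100a10 and Anxa2 in the IP, in FPKM on log axes, with SD bars over 4 mice (open circles, control groups; filled squares, treated groups; colours, experiments). Both genes are highest with hM3Dq and CNO (273 and 158 FPKM) and lowest in the KO group (26.7 and 6.77), and the TdTomato and LPS groups share an S100a10 level (99.5 and 101) with Anxa2 at 22.0 and 49.5.

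Partners and receptors of these proteins, a list of 18 genes, were read in the IP against the share of all genes called in each comparison. After LPS 10 of 18 rose and 2 fell, beside 36.9% of all genes called (19.1% higher). In Cre mice 6 of 18 fell and 1 rose, beside 29.3% (16.1% lower, 13.2% higher). In hM3Dq mice 8 of 18 rose with CNO and 1 fell, beside 45.4% (24.3% higher, 21.1% lower). Taken in either direction, the Cre and hM3Dq counts are nearer the background. The falls in Cre mice and the rises with LPS or with hM3Dq and CNO are above the share in their direction, which was not tested. In Cre mice Htr1b, a serotonin receptor that S100a10 brings to the membrane, rose from 10.6 ± 1.05 to 14.4 ± 1.42 FPKM (SD, n = 4; log2 change 0.48, adjusted p = 0.0019). Htr1b was lower in IP than in input of control mice (log2 difference -1.51), and 10 of 11 medium spiny neuron markers rose in the same Cre IP. In hM3Dq mice Bsg fell from 140.0 ± 4.77 to 108 ± 3.27 FPKM (-0.33, adjusted p = 0.0012). Htr1b and Bsg are named after their values were seen. In the IP3R2 experiment 0 of 17 tested were called in either fraction, and in rM3Ds IP Tlr4 alone of 18 was called, beside 4.58% of all genes. After QA 12 rose and 4 fell, beside 74.0% (35.5% higher). The list's median log2 change in IP was 0.40 with LPS, -0.12 with Cre and 0.16 with hM3Dq and CNO, beside -0.022, 0.005 and -0.002 over all genes tested.

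Anxa2, the annexin that binds S100a10, went from 11 ± 1.68 to 158 ± 30.5 FPKM with CNO in hM3Dq IP (SD, n = 4; log2 change 3.87, adjusted p = 5.71e-08). It went from 14.1 ± 4.21 to 49.5 ± 19.4 after LPS (1.90, 0.0092) and from 22.0 ± 2.63 to 8.86 ± 2.02 in Cre mice (-1.29, 1.70e-04). Anxa2 and S100a10 rose together in those 2 experiments and fell together in the Cre mice. Cd44, a hyaluronan receptor, went from 6.73 ± 0.99 to 104 ± 12.8 FPKM with hM3Dq and CNO (3.97, 1.97e-08) and from 16 ± 2.36 to 4.50 ± 0.35 in Cre mice (-1.76, 3.37e-06). Anxa1, which binds S100a11, went from 0.556 ± 0.22 to 3.38 ± 1.39 FPKM after LPS (2.5, 0.0049) and from 0.625 ± 0.24 to 3.96 ± 1.67 with hM3Dq and CNO (2.5, 1.36e-04). Ahnak, a large scaffold protein that binds the complex of S100a10 and annexin A2, went from 7.96 ± 0.43 to 3.21 ± 0.51 FPKM in Cre mice (-1.26, 3.04e-05). In input Anxa2 and Cd44 were called in the LPS, Kir4.1 and hM3Dq experiments in the direction of the IP. In rM3Ds IP Anxa2 was at 18.2 ± 4.02 FPKM with vehicle and 33.6 ± 10.1 with CNO and did not pass (0.87, adjusted p = 0.0692).

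Among 9 other galectin genes, Lgals3, the phagocyte and reactive glia galectin, changed most. In hM3Dq IP it went from 1.33 ± 0.36 to 33.3 ± 16.7 FPKM with CNO (log2 change 4.47, adjusted p = 4.64e-06), above the 1.59-fold rise of Lgals1. In Cre mice it went from 5.39 ± 0.63 to 1.18 ± 0.24 FPKM (-2.08, 4.52e-06), as Lgals1 fell. With QA it was at 4.66 ± 0.78 and 40.0 ± 7.79 FPKM in vehicle and QA IP. After LPS Lgals9 rose from 5.83 ± 3.12 to 17.4 ± 3.29 FPKM (1.82, 0.0063) and Lgals8 from 14.7 ± 0.95 to 30.7 ± 11.6 (1.11, 0.0246), while Lgals1 and Lgals3 (0.90, adjusted p = 0.130) did not pass. Lgals8 also rose with hM3Dq and CNO, from 16.5 ± 0.59 to 28.4 ± 1.01 FPKM (0.82, 5.66e-06). Lgalsl went the other way there, from 28.8 ± 2.32 to 21.9 ± 1.48 FPKM (-0.35, limma adjusted p = 0.0017). In Cre mice Lgalsl rose from 29.7 ± 0.48 to 32.1 ± 1.11 FPKM (0.15, 0.0105), while Lgals9 fell from 3.87 ± 0.59 to 1.37 ± 0.33 (-1.42, 2.86e-04). After LPS Lgalsl rose from 24.7 ± 0.66 to 43.9 ± 10.8 FPKM (0.93, 0.0115).

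Of 8 other S100 genes, at most 3 reached the minimum level in any comparison. S100a8 and S100a9, which neutrophils carry in large amounts, rose after LPS in the input, S100a8 from 0.239 ± 0.063 to 8.06 ± 2.64 FPKM (4.58, adjusted p = 1.04e-04) and S100a9 from 0.141 ± 0.12 to 9.59 ± 2.71 (5.5, 1.94e-04). Both passed the minimum through the LPS mice, so these calls rest on entering through the group where they are high. In IP of the same mice S100a8 stayed at 0.0517 to 0.120 FPKM and S100a9 at 0.157 to 0.543, where the minimum is 0.5. Leukocyte markers in LPS input summed to 7.62 to 9.96 FPKM, against 3.36 to 14 with vehicle, and Itgal and Chil3 rose. S100a3 rose in hM3Dq IP with CNO, from 0.974 ± 0.25 to 3.83 ± 0.72 FPKM (1.92, 1.93e-05). The LPS change of S100a8 was smaller in IP by a log2 difference of -4.08 and that of S100a9 by -3.14. Both entered that comparison through the LPS input, their IP levels lying under or near the minimum, so no p is given. S100a7a was at 0.865 ± 0.26 FPKM in TdTomato and 0.373 ± 0.12 in Cre IP (-1.0, 0.0090). It was at the minimum of 0.5 FPKM or more in 4 of 4 TdTomato and 1 of 4 Cre mice, so its call rests on entering through the group where it is high, and S100a3, the other gene of the list tested there, was not called.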

How the data were processed

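The deposited values are FPKM per gene, 1 file per library. Alignment with STAR, counting with HTSeq and the mm10 build are named in the submitters' processing notes, with no versions or order, and the strand setting of counting is not given in the sources used here. Strand-specific libraries followed ribosomal RNA depletion per the labels' protocols, while another label names polyA RNA. For the 21500 entries above 0 in any library, 100% of values came out as whole reads within 0.001 reads, which gave the depth of each library (14738821 to 82256202 reads). FPKM are not counts, so the main test was limma 3.58.1 in R 4.3.3 with a mean-variance trend on log2(FPKM + 0.1), after scaling by trimmed mean of M values (TMM) computed from the recovered reads. Fold changes are on that scale, where the added 0.1 shrinks changes of low genes. They compare means of log values, so they can lie above or below ratios of mean FPKM. A gene entered a comparison when 4 or more of its libraries reached 0.5 FPKM, p-values were adjusted by Benjamini-Hochberg over all of them, and 0.05 was the threshold. Each experiment was fitted alone, 4 treated against 4 control mice, in IP and in input. IP against input, and the difference of a treatment's effect between them, used a term for each mouse. No library pair was identical (0 pairs). Alternatives were other scaling (RLE, none), pseudocounts of 0.01 and 1, no filter, voom on recovered reads (a count-based limma fit), a spread over all 48 libraries of a fraction, sex as a covariate, a replicate block and leaving out each mouse. The comparison of CNO effects between receptors and the fit of female mice alone were added after seeing the data. The 9 genes and the lists (8 other S100 genes, 9 other galectins, 18 partners and receptors, cell type markers) were chosen with earlier results of these data known. From the lists up to 4 called genes with the largest change and a mean level of 1 FPKM or more are named per comparison. Likeness was taken over genes averaging 2 FPKM or more in IP. The fit was tested on simulated data. Replicate numbers shared by treated and control mice were not taken as pairs (closing section). Of the genes most like each member, some are not reported here.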

Additional observations from a re-analysis of the deposited data

Results flagged for a closer look

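In groups of 4 libraries, 1 library stood far from the other 3 by Dixon's criterion in 9 of 216 groups of gene, fraction and arm, where chance gives about 10.8. In the LPS experiment these were S100a1 in vehicle IP replicate 4 (198 FPKM, the others 220 to 221), S100a16 in the same library (159 FPKM, the others 144 to 147), S100b in LPS input replicate 1 (51.3 FPKM, the others 60.2 to 61.1) and Lgals1 in LPS input replicate 2 (7.84 FPKM, the others 4.03 to 4.56). In the QA arm they were S100a13 in IP replicate 3 (144 FPKM, the others 128 to 130) and S100b in input replicate 4 (138 FPKM, the others 145 to 146). S100a4 stood apart in Cre IP replicate 1 (8.88 FPKM, the others 11.4 to 11.7) and in hM3Dq vehicle input replicate 1 (2.75 FPKM, the others 4.48 to 4.6), and S100a16 in hM3Dq CNO IP replicate 2 (266 FPKM, the others 194 to 197).

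Effects that differed between fractions of the same mice, by limma's adjusted p, were those of Cre on S100a6 (log2 difference IP minus input -0.69), S100a10 (-1.34) and Lgals1 (-0.97), and those of CNO in hM3Dq mice on S100a1 (-0.37) and S100a10 (1.64). Effects of CNO that differed between receptors, hM3Dq minus rM3Ds, were in IP those on S100a4 (1.11), S100a6 (0.99), S100a10 (2.88), S100a13 (0.36), S100a16 (0.63), S100b (-0.53) and Lgals1 (0.81), and in input those on S100a4 (1.38) and S100a10 (1.28).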

How the results depend on the processing

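Outside leave-one-out, 1478 values of the 9 genes over the alternatives kept direction and call, 12 gained and 11 lost a call and 1 turned direction, S100a16 in the QA effect of IP minus input without TMM scaling (-0.14). Leaving out 1 mouse kept 1531 values, gained 16 calls and lost 25. Counts of called genes changed by over 1.5 times in 3 comparisons. The QA effect of IP minus input had 7 called without TMM scaling (3 otherwise), the LPS effect of IP minus input had 2 with a pseudocount of 1 (0 otherwise), and Kir4.1 input (1, Lgals1) had 2 without TMM scaling or with the spread over 48 libraries and 0 with no filter, with the replicate block or with sex as a covariate. The cause was not tested. Leaving out 1 mouse gave 9 to 9 called in QA IP and in QA input and 3 to 5 in the QA effect of IP minus input. Nothing is read from any QA count or QA value of the 9 genes in this paragraph, since QA bore on their choice. Leaving out 1 mouse gave 5 to 5 in LPS IP, 2 to 3 in LPS input and 0 to 3 in the LPS effect of IP minus input. It gave 6 to 8 in Kir4.1 IP, 0 to 2 in Kir4.1 input and 3 to 3 in the Kir4.1 effect of IP minus input. It gave 7 to 9 in hM3Dq IP, 3 to 5 in hM3Dq input, 1 to 3 in the hM3Dq effect of IP minus input, 6 to 7 for the CNO effect between receptors in IP and 2 to 2 in input, and 0 in each IP3R2 and rM3Ds comparison. Over all genes voom on recovered reads called 10231 in QA IP (10235 by limma-trend), 5048 in LPS IP (5032), 4086 in Kir4.1 IP (3969), 636 in rM3Ds IP (620), 6228 in hM3Dq IP (6153) and 141 in Kir4.1 input (49). No experiment had all 4 same-numbered pairs of treated and control mice correlated above 0.1, so replicate numbers were not taken as pairs. In rM3Ds 3 of 4 pairs were above it in IP (-0.163 to 0.531) and 3 of 4 in input (-0.054 to 0.381). The replicate block moved no other count by over 1.5 times. Without TMM scaling the median log2 difference over all genes moved from -0.037 to -0.242 for IP against input, from -0.022 to -0.162 in LPS IP, from -0.036 to 0.089 in QA input and from -0.010 to -0.154 in the QA effect of IP minus input. Depth limits S100a11 most, with 1 to 37 reads in control inputs.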
